A study of Mus musculus with 3 samples.

Results

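The complement system was followed as 36 genes, chosen by symbol from the 34099 genes of the matrices, in the livers of 3 mice measured by single-cell RNA sequencing. They comprise the subunits and proteases that start the cascade, the convertase genes, the terminal pathway, fluid-phase and membrane regulators, and receptors. Each mouse had 500 mg/kg of acetaminophen (APAP, paracetamol), a drug whose toxic metabolite injures hepatocytes in overdose, and 6 h later an infusion. The PBS mouse received buffer, the native MSC mouse unmodified mesenchymal stromal cells, and the engineered MSC mouse mesenchymal stromal cells carrying bispecific polyvalent peptides. Livers were taken 4 days later. All 3 groups carry the APAP injury and no uninjured liver was analysed here. The labels used here do not give strain, sex or age. Each group is 1 mouse and 1 library, so mouse and treatment cannot be told apart, no test was made, and every interval below (95%) covers counting error only.

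Complement is a set of plasma and membrane proteins that tag particles for uptake, attract phagocytes and open pores in membranes. The classical pathway starts with C1q bound to C1r and C1s, the lectin pathway with mannose-binding lectins or ficolins bound to MASP proteases, and the alternative pathway with factor B, factor D and properdin, and all of them converge on cleavage of C3. C5 to C9 then form the membrane attack complex, while factor I, C4-binding protein, C1 inhibitor, CD55 and CD59 restrain the cascade. The liver is the main source of plasma complement, with hepatocytes as the textbook producers of most components, and macrophages as the producers of C1q.

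The libraries held 62564254 to 84950721 UMIs (unique molecular identifiers, counted transcripts), and 9131 to 9534 cells were kept in each. Cells were clustered without the complement genes and named from markers, so a class is called "X-like". Levels are CPM (UMIs of a gene, scaled to the usual per-million total of the class), and a 3' UMI count does not grow with gene length. Class sizes differed. In PBS, native MSC and engineered MSC there were 344, 821 and 1648 hepatocyte-like cells, 670, 31 and 278 Kupffer-like cells (resident liver macrophages), and 1926, 26 and 18 macrophage-like cells. Cluster 11, with 41, 768 and 362 cells, was led by Spp1, Pf4 and Apoe and stayed without a name although the macrophage markers scored best in it. Hepatocyte-like cells lay in different clusters, mainly cluster 8 in PBS and native MSC and cluster 6 in engineered MSC. They had low Alb (albumin) for hepatocytes, 3044, 3950 and 6627 CPM, and low mitochondrial shares, with medians of 0.176%, 0.0837% and 0.599% of UMIs. Whether they stand for intact hepatocytes was not tested, so comparisons with them hold for these cells only. Other classes lay mainly in different clusters too: endothelium in 10, 10 and 5, neutrophils in 2, 4 and 29, classical monocytes in 0, 0 and 7, B cells in 13, 13 and 3 and T cells in 14, 14 and 16. Between 39 and 46 barcodes were shared by any pair of libraries.

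Hepatocyte RNA outside hepatocytes was judged by Alb in the same cells. The level expected from carry-over is the Alb level of the class times the ratio of the gene to Alb in hepatocyte-like cells of that library. A gene is called above carry-over where the class holds at least 20 of its UMIs and the lower bound of observed over expected exceeds 2. Alb in non-hepatocyte classes was far from equal between libraries: T-cell-like cells had 130, 341 and 2029 CPM, Kupffer-like cells 94.3, 306 and 1148 CPM, and endothelium-like cells 93.6, 221 and 1291 CPM in PBS, native MSC and engineered MSC. The engineered MSC library thus had from 12.2 to 15.7 times the Alb of PBS in these classes, and 2.18 times in hepatocyte-like cells. Cluster 17, without a name, held 581 engineered MSC cells with a median of 772 UMIs and an Alb level of 20517 CPM, above that of hepatocyte-like cells.

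In some class outside hepatocyte-like cells, 25 of the 31 members with at least 20 UMIs were above carry-over in PBS, 25 of 34 in native MSC and 24 of 35 in engineered MSC. Among all genes with that many UMIs the shares were 98.6%, 97.5% and 94.7% in that order. C8a, C8b, C8g, Cfi, C4bp, Masp2, Mbl1, Mbl2 and Vtn were above it in no class of any library, all of them genes whose textbook source is the hepatocyte. In PBS, C8a, C8b, Masp2 and Mbl1 had fewer than 20 UMIs in each named class outside hepatocyte-like cells. The same held for C8b in native MSC, so no call was possible for them there. In T-cell-like cells, which should lack most members, 7 of 7, 8 of 12 and 4 of 29 members with enough UMIs were above (98.1%, 95% and 74.7% of all genes). The 4 in engineered MSC are beside an Alb level of 2029 CPM.

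**Figure D1:**
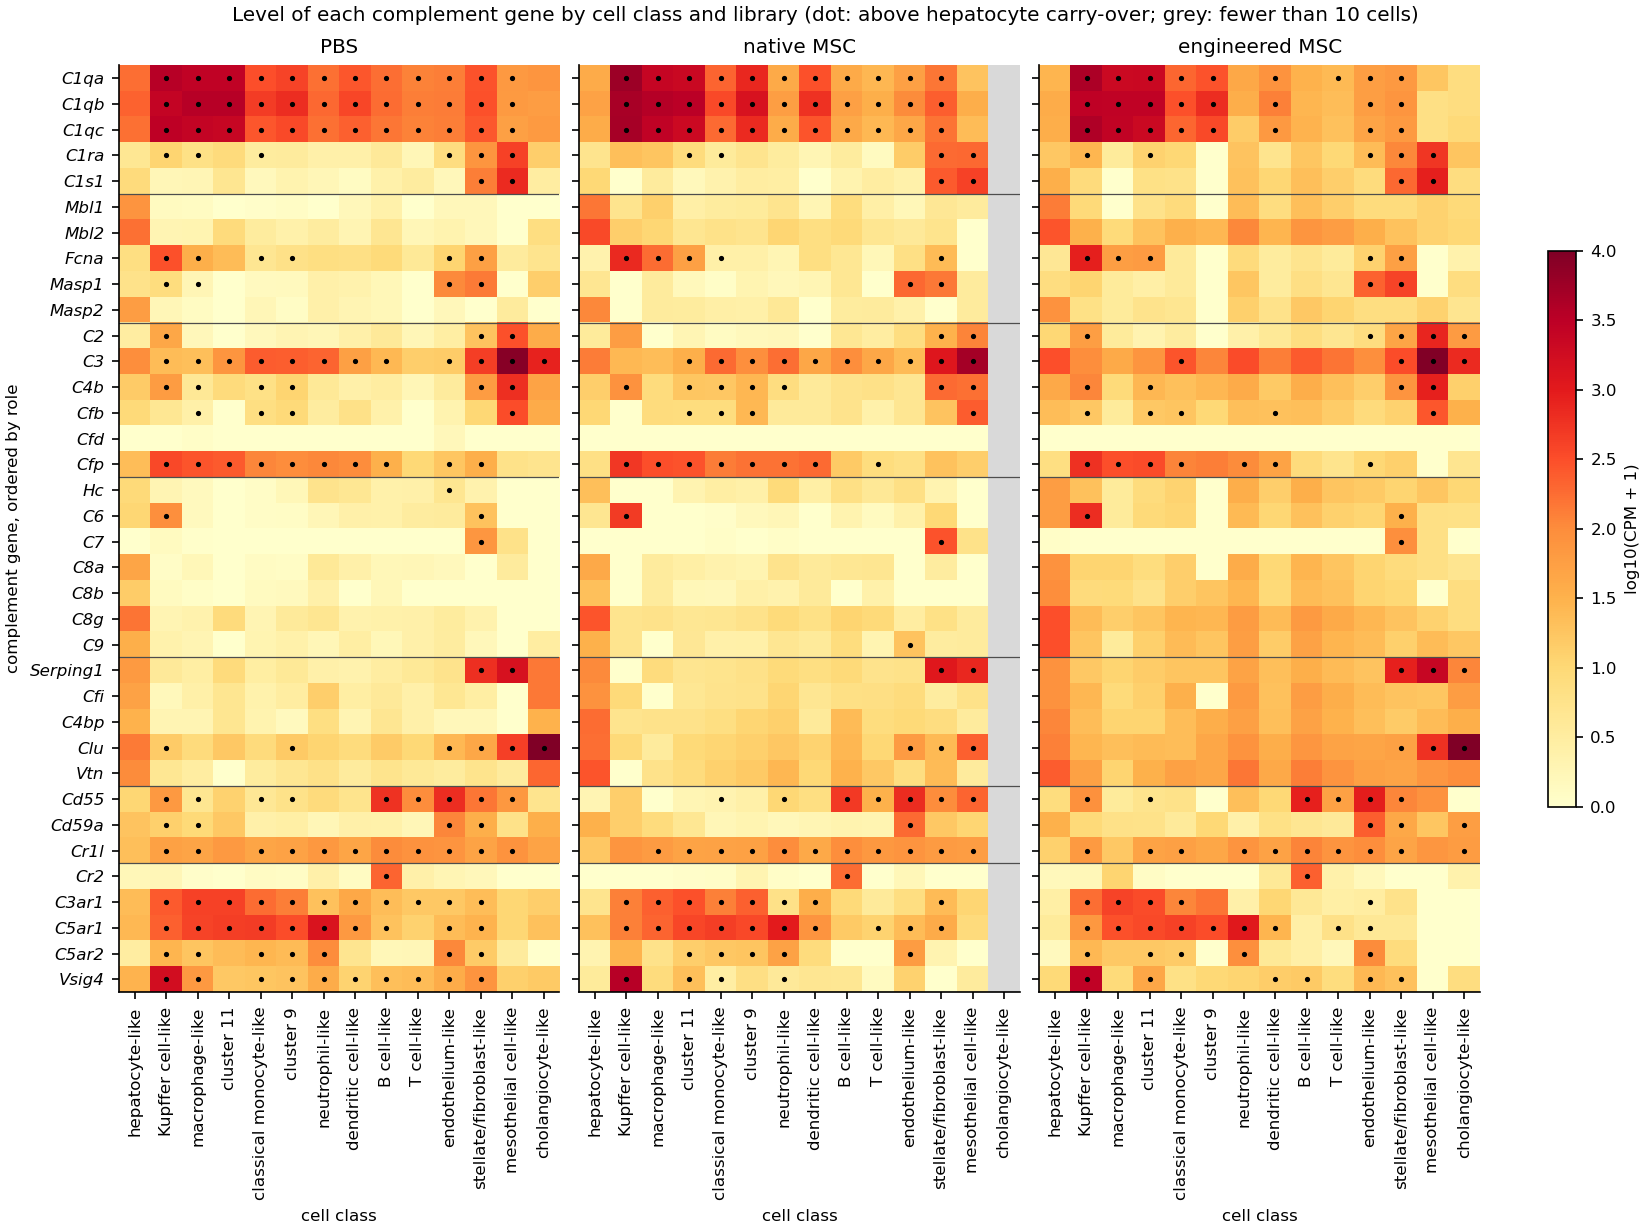
Level of the 36 complement genes (rows, by role, divided by lines) in 14 cell classes or clusters (columns) of each library, as log10 of CPM plus 1; a dot marks a level above hepatocyte carry-over and grey a class with fewer than 10 cells. C1q genes are dark in Kupffer-like cells, macrophage-like cells and cluster 11, C3 in mesothelial-like cells and Clu in cholangiocyte-like cells, while the C8 genes, Mbl1, Mbl2 and Vtn are highest in the hepatocyte-like column, apart from Vtn in cholangiocyte-like cells of PBS, and have no dots.

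The C1q genes encode the 3 chains of the recognition subunit of C1 and were macrophage genes in every library. C1qa had 3434, 5718 and 4267 CPM in Kupffer-like cells and 2831, 2385 and 2090 CPM in macrophage-like cells of PBS, native MSC and engineered MSC. In cluster 11 it had 2831, 2164 and 2145 CPM. Carry-over from hepatocytes would give at most 9.30 CPM in any of these. C1qc was highest in Kupffer-like cells too, at 2990, 4809 and 4001 CPM. C1qb was the chain with another order: in PBS it was higher in macrophage-like than in Kupffer-like cells, 3486 against 2633 CPM, with intervals that do not overlap. Macrophage-like cells held 70.9% of the UMIs of the C1 genes in PBS, and cluster 11 held 44.9% in native MSC and 39.5% in engineered MSC, where cycling cells, which mix lineages, held 31.2% and 18.8%. Cluster 9 had 629, 1406 and 633 CPM of C1qb, the last from 21 cells. It scored best for patrolling monocytes and holds their markers Ace and Adgre4 among its 10 leading genes, but the skeletal muscle genes Acta1, Tnnc2, Myl1, Tnnt3, Ckm and Mylpf are there too, so it is given by number.

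Outside myeloid classes, C1q was weighed in the same way against Lyz2, Cd68, Ctss and Csf1r in place of Alb. Kupffer-like plus macrophage-like cells were the source, 31 and 26 cells in native MSC, and cluster 11 was left out. These transcripts are not specific to macrophages. They summed to 14549, 19305 and 16537 CPM in classical-monocyte-like cells of PBS, native MSC and engineered MSC. Kupffer-like cells had 6631, 7608 and 6932 CPM of them. The predicted level therefore need not stand for macrophage RNA alone. C1qb in T-cell-like cells was 129, 33.7 and 21.7 CPM, which is 0.75, 0.25 and 0.40 of the level these transcripts predict. In hepatocyte-like cells of PBS it was 220 CPM with 220 CPM predicted. C1qa and C1qc in hepatocyte-like cells were likewise at 0.91 and 0.98 of the prediction in PBS, and at most at 0.455 of it in the other libraries. Dots for C1q genes in the T-cell-like and B-cell-like columns thus mark levels above what Alb predicts and below what these myeloid transcripts predict. Whether macrophages were the source of that C1q RNA was not tested. The endothelium-like cells of engineered MSC were the one non-myeloid class past 1.5 for C1qb, at 1.51, where the level was 56.6 CPM.

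The upstream sequences of C1qb and of Vsig4, the macrophage receptor for C3b, are shown because both genes were led by Kupffer- or macrophage-like cells. They are the 250 bases before the RefSeq start (GRCm38.p6 table, while the matrices were counted on GRCm39), 5' to 3' on the gene's strand. Capitals mark GAGGAA or its reverse complement, the core bound by the macrophage factor PU.1, searched on both strands.
C1qb, chr4:136886201-136886450, minus strand: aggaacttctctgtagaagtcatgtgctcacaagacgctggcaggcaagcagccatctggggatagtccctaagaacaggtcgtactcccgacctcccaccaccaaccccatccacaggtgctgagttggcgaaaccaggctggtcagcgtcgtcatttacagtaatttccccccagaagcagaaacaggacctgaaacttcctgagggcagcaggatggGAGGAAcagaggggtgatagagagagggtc
Vsig4, chrX:96293439-96293688, minus strand: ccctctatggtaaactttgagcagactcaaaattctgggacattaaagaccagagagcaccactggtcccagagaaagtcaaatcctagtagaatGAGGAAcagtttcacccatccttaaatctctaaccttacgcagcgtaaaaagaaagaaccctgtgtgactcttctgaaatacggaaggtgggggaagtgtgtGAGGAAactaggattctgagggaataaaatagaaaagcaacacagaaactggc
Of 36 members, 28 had an entry in the table. These letters occur in the same window of 23.3% of 32851 promoters. They are in 4 of the 7 Kupffer- or macrophage-led members with an entry (C1qb, C1qc, Vsig4 and Fcna). Among members never above carry-over they are in 0 of the 8 entries. Over all members they are in 6 of 28 entries, the others being Cd59a and C5ar2. A match is a description of letters, and none shows that a factor binds.

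C1ra and C1s1, the proteases of C1, were highest in other classes than C1q. Mesothelial-like cells (the liver's surface lining, 36, 18 and 22 cells) had 409, 192 and 529 CPM of C1ra and 684, 420 and 880 CPM of C1s1. Stellate- or fibroblast-like cells followed with 76.6, 184 and 109 CPM of C1ra and 130, 254 and 197 CPM of C1s1, against at most 4.24 CPM from carry-over. In hepatocyte-like cells C1s1 had 7.53, 8.81 and 33.5 CPM. Both proteases were thus highest in mesenchymal classes in all 3 libraries, and Kupffer-like cells had 10.2, 20.7 and 26.7 CPM of C1ra. C1rb and C1s2, near-identical copies that could share reads, had at most 1 UMI in the class where each was highest.

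Lectin pathway genes split between hepatocytes, Kupffer cells and mesenchyme. The mannose-binding lectins were hepatocyte genes: Mbl2 had 166, 344 and 276 CPM and Mbl1 78.7, 149 and 136 CPM in hepatocyte-like cells. Masp2, the protease that cleaves C4 and C2, had 57.5, 110 and 83.4 CPM there. None of these was above carry-over in any class, though Mbl1 and Masp2 had too few UMIs for a call in PBS. Cluster 17, with its higher Alb, had 417 and 490 CPM of Mbl2 in native and engineered MSC, where Alb predicts 1996 and 854 CPM. Fcna, the ficolin of mouse macrophages, was a Kupffer gene with 296, 719 and 893 CPM, while macrophage-like cells had 33.1, 183 and 56.3 CPM. Masp1, the protease that activates Masp2, was made by stellate- or fibroblast-like cells (140, 143 and 402 CPM) and endothelium-like cells (104, 197 and 217 CPM). Its hepatocyte-like level was at most 6.58 CPM, so the MASP proteases were led by different cell types.

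**Figure D2:**
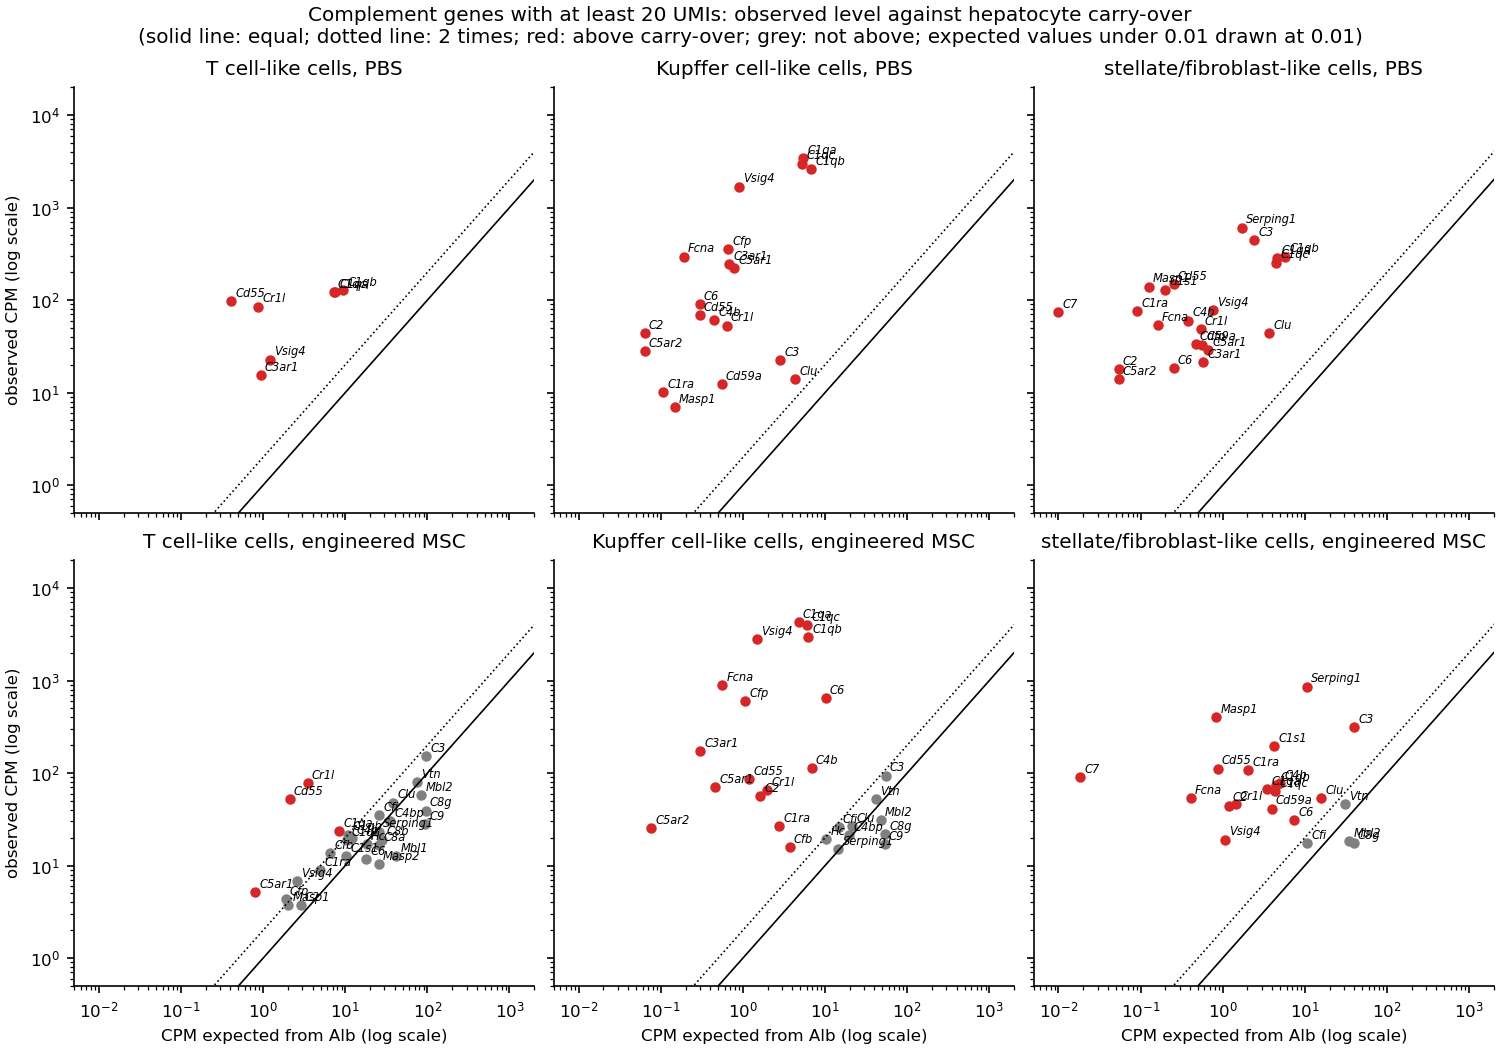
Observed CPM against the CPM expected from Alb (both log scale) for members with at least 20 UMIs in T-cell-like, Kupffer-like and stellate- or fibroblast-like cells, PBS above and engineered MSC below; the solid line marks equality, the dotted line 2 times, red points are above carry-over and grey are not. In engineered MSC the hepatocyte genes Mbl2, C8g and C9 lie below the solid line and Vtn near it in T-cell-like and Kupffer-like cells, while C6, Fcna, Vsig4 and C1q lie far above it in Kupffer-like cells.

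C3, on which all pathways converge, was highest in mesothelial-like cells, with 8613, 4918 and 9471 CPM. Stellate- or fibroblast-like cells had 443, 1148 and 316 CPM and cholangiocyte-like cells (bile duct epithelium) 818 CPM in PBS (17 cells) and 697 CPM in engineered MSC (33 cells). Hepatocyte-like cells had 92.4, 133 and 315 CPM, below classical-monocyte-like cells in PBS and native MSC (241 and 189 CPM) and near them in engineered MSC (277 CPM). Neutrophil-like cells had 207, 171 and 331 CPM, of which carry-over predicts 7.31, 20.0 and 166 CPM, so that the level in engineered MSC was not above it. C3 in neutrophil-like cells of PBS was as high in the 377 cells without a UMI of Alb (207 CPM) as in those with one (208 CPM), and in classical-monocyte-like cells it was 241 and 240 CPM. In T-cell-like cells of engineered MSC, C3 was at 154 CPM with 96.5 CPM predicted.

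The window before the start of C3 is shown because several classes expressed C3. Capitals mark TTGCNNAA, a match to the C/EBP-type motif of the acute-phase response.
C3, chr17:57228137-57228386, minus strand: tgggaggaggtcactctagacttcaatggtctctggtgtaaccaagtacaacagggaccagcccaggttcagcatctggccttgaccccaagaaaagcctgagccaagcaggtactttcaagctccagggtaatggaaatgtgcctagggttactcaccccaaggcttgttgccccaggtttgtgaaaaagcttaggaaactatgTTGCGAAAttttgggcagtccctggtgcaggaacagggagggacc
Among the 28 members with an entry, C1s1, C3, C9 and C5ar2 hold it on either strand, and 9.56% of all promoters do.

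Cfd apart, the other convertase genes were higher in mesothelial-like or Kupffer-like cells than in hepatocyte-like cells, which may not stand for intact hepatocytes. C2, the classical convertase protease, had 302, 117 and 757 CPM in mesothelial-like cells and 44.0, 57.9 and 56.1 CPM in Kupffer-like cells, and at most 9.36 CPM in hepatocyte-like cells. C4b, the mouse C4 gene, had 618, 165 and 841 CPM in mesothelial-like cells and 60.1, 184 and 78.7 CPM in stellate- or fibroblast-like cells. Kupffer-like cells had 60.3, 82.7 and 114 CPM of it, and cluster 27 of native MSC (172 cells led by Alox15, Prg4 and Saa3) had 374 CPM. Its near-identical copy C4a had 13.7, 27.5 and 17.4 CPM in hepatocyte-like cells, where C4b had 14.4, 12.8 and 39.8 CPM, so the split between these copies is uncertain. Cfb, factor B, had 324, 237 and 267 CPM in mesothelial-like cells. Cfp, properdin, was a myeloid gene, with 358, 513 and 596 CPM in Kupffer-like and 279, 312 and 307 CPM in macrophage-like cells. Cfd, factor D and a fat cell product, was nearly undetected: endothelium-like cells of PBS had 5 UMIs (0.64 CPM), the highest level of any class. Only 0.0915% of these 1093 cells had a UMI of it, so no class can be called its source.

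The terminal genes were divided among 3 cell types. C8a, C8b, C8g, C9 and Hc (the gene of C5) were led by hepatocyte-like cells in PBS, at 45.2, 13.7, 157, 33.5 and 8.21 CPM. In engineered MSC the same cells had 84.1, 92.5, 310, 308 and 59.4 CPM, and cluster 17 more of each. Elsewhere, C9 was above carry-over in endothelium-like and cycling cells of native MSC, and Hc in endothelium-like cells of PBS. C6 was instead a Kupffer gene. It had 91.5, 484 and 641 CPM in Kupffer-like cells, where hepatocyte carry-over predicts 0.297, 0.299 and 10.2 CPM. Macrophage-like cells of PBS had 0.444 CPM from 12 UMIs in 1926 cells, cluster 11 of native MSC had 0 UMIs in 768 cells, and cluster 11 of engineered MSC had 7.99 CPM with 7.44 CPM predicted, so among the macrophage classes C6 was high in the Kupffer-like one. Stellate- or fibroblast-like cells had 18.4, 8.74 and 31.0 CPM of it. Cluster 28, which lay between the Kupffer and the sinusoidal endothelium lists and stayed without a name, had 288 CPM of C6 in engineered MSC (131 cells), beside 407 CPM of Fcna, 962 of Vsig4, 120 of Masp1 and 551 of Cd55.

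C7 was found in stellate- or fibroblast-like cells alone at a level above 10 CPM, with 73.6, 284 and 89.8 CPM. In the hepatocyte-like cells of the 3 libraries together it had 1 UMI. It was unequal among these cells: 23 of 152, 29 of 75 and 22 of 114 had a UMI, and the 5 richest cells held 60.8%, 57.7% and 67.3% of its UMIs. Stellate- or fibroblast-like cells of PBS without a UMI of Alb had 117 CPM of C7 and those with one 47.1 CPM. C6 and C7 lie on chromosome 15 with 1 protein-coding gene between them, and 6 lie between C7 and C9, so genes for successive parts of the pore that are close in the genome were led by Kupffer-like, stellate- or fibroblast-like and hepatocyte-like cells.

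The windows of C8a, C8b and Vtn are shown because these hepatocyte genes were never above carry-over elsewhere, where they had enough UMIs for a call. Capitals mark GTTAAT or its reverse complement ATTAAC, the half-site of the hepatocyte factor HNF1.
C8a, chr4:104876399-104876648, minus strand: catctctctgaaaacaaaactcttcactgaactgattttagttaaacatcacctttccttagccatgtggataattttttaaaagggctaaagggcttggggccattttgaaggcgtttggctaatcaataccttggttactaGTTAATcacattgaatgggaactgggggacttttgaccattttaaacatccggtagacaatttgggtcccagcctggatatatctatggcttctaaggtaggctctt
C8b, chr4:104766067-104766316, plus strand: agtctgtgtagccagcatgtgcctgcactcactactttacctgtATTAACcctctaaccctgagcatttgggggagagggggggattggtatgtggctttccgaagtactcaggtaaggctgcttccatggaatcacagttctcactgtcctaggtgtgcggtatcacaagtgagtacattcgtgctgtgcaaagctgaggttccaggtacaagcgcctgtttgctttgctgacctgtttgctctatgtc
Vtn, chr11:78498870-78499119, plus strand: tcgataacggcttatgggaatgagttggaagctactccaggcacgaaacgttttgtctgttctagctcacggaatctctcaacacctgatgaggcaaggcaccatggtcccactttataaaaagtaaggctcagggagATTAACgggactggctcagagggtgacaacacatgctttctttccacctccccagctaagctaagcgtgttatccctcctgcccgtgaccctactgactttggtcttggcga
This motif was in 4 of the 8 entries never above carry-over (these and C4bp) and in 1 of the 7 Kupffer- or macrophage-led entries (Cfp). It was in 6.43% of all promoters. Over all members it was in 9 of 28 entries, the others being C1ra, Hc, C7 and Cr2. Of these, C1ra, C7 and Cr2 were led by other classes than hepatocyte-like cells. C8a and C8b are neighbours on chromosome 4 with no protein-coding gene between them. Both were at 19.1 CPM or less in T-cell-like cells of every library.

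Among fluid-phase regulators, Serping1 (C1 inhibitor) was mesenchymal. It had 1436, 727 and 2344 CPM in mesothelial-like and 608, 1106 and 862 CPM in stellate- or fibroblast-like cells, and hepatocyte-like cells had 65.0, 105 and 84.1 CPM. Clu (clusterin, which blocks pore insertion) was led by cholangiocyte-like cells, with 16738 CPM in PBS and 10760 CPM in engineered MSC, against 139, 173 and 125 CPM in hepatocyte-like cells. The other 3 were hepatocyte genes. Vtn (vitronectin) had 103, 280 and 243 CPM, C4bp (C4-binding protein) 30.1, 183 and 114 CPM, and Cfi (factor I) 50.6, 82.6 and 84.4 CPM in hepatocyte-like cells. Cholangiocyte-like cells of PBS had more Vtn (202 CPM) and Cfi (145 CPM), but their Alb was 4853 CPM, above that of hepatocyte-like cells, and neither was above carry-over.

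Membrane regulators were led by endothelium and lymphocytes. Cd55, which dissolves convertases, had 629, 653 and 921 CPM in endothelium-like and 572, 499 and 835 CPM in B-cell-like cells, with at most 3.40 CPM from carry-over. A UMI of it was found in 89.1%, 91.3% and 93.2% of endothelium-like cells, and T-cell-like cells had 98.1, 30.9 and 52.1 CPM. Cd59a, which blocks the pore, had 112, 183 and 236 CPM in endothelium-like cells and 17.8, 31.7 and 31.3 CPM in hepatocyte-like cells. Cr1l (Crry, the general mouse convertase regulator) was even, with 79.5, 79.3 and 94.8 CPM in endothelium-like, 101, 92.7 and 117 CPM in B-cell-like and 70.4, 95.6 and 79.1 CPM in neutrophil-like cells. Hepatocyte-like cells had 20.5, 15.9 and 11.4 CPM, the lowest of these. The copies Cd55b and Cd59b reached at most 15.9 and 11.1 CPM in the class where each was highest.

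Receptors were cell-type genes. Cr2, the B-cell receptor for C3d, had 204, 182 and 226 CPM in B-cell-like cells and at most 1.46 CPM in T-cell-like cells. C5ar1, the receptor for the chemoattractant C5a, was led by neutrophil-like cells with 1297, 984 and 1065 CPM, followed by classical-monocyte-like cells with 456, 452 and 420 CPM. C5ar2, the other C5a receptor, lies next to it on chromosome 7 and had another pattern: endothelium-like cells had 107, 60.2 and 101 CPM and neutrophil-like cells 95.8, 49.7 and 91.0 CPM. C3ar1, the C3a receptor, had 408, 226 and 402 CPM in macrophage-like cells and 412, 302 and 338 CPM in cluster 11. Vsig4 had 1691, 3440 and 2811 CPM in Kupffer-like cells and 67.1, 7.21 and 7.67 CPM in macrophage-like cells. C3ar1 had 245, 124 and 171 CPM in Kupffer-like cells, so these receptors had opposite orders in Kupffer-like and macrophage-like cells of all 3 libraries.

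Kupffer-like cells were then compared between libraries. C6 in engineered MSC was 7.01 times the PBS level (6.28 to 7.84) and in native MSC 5.29 times (4.28 to 6.48), the latter from 31 cells, 5 of which held 53.0% of the UMIs. Fcna was 3.02 times (2.81 to 3.25) and 2.43 times (2.07 to 2.85) the PBS level, and Vsig4 1.66 times (1.60 to 1.73) and 2.03 times (1.89 to 2.18). C5ar1, at 223, 124 and 71.2 CPM, was 3.13-fold lower in engineered MSC than in PBS (2.56 to 3.87). Alb was 12.2 times as high in engineered MSC, but carry-over predicts 1.58% of its C6 level. C6 in PBS was 96.5 CPM in the 338 Kupffer-like cells without a UMI of Alb and 87.9 CPM in those with one.

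More Kupffer-like cells also had C6 at all. In PBS 41.9% had a UMI of C6, in native MSC 71.0% and in engineered MSC 80.2%, at median depths of 6298, 7805 and 3336 UMIs per cell. With cells thinned to 2000 UMIs each, leaving out 128 and 90 shallower cells, the shares were 17.9% (14.8 to 21.4, exact binomial) in PBS and 71.3% (64.2 to 77.6) in engineered MSC. T-cell-like cells, which should lack C6, had thinned shares of 0.920% and 2.63%, at median depths of 3206 and 4122 UMIs. C5ar1 went the other way, with thinned shares of 31.7% (27.8 to 35.8) in PBS and 10.6% (6.62 to 16.0) in engineered MSC.

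Of 20 members above Kupffer carry-over in PBS or engineered MSC, 5 were at least 2-fold higher in engineered MSC (C6, Fcna, Cfb, C3 and C1ra) and 1 was at least 2-fold lower (C5ar1). Of all genes above carry-over there, 4.76% were at least 2-fold higher and 8.33% at least 2-fold lower. The median log2 ratio of the 20 members was 0.49 and that of all such genes -0.04. Cfb was among the 20 through engineered MSC alone, as it was not above carry-over in PBS. It had 2 UMIs in Kupffer-like cells of engineered MSC without a UMI of Alb and 21 in those with one. C3 was 4.20 times as high (93.8 against 22.3 CPM), but carry-over predicts 54.6 CPM in engineered MSC, so its level there was not above carry-over. In all, 19 of 19 members with enough UMIs were above carry-over in Kupffer-like cells of PBS and 16 of 26 in engineered MSC (98.8% and 85.9% of all genes). The C1q genes had engineered MSC to PBS ratios of 1.11 to 1.34, and their direction turned with other cell filters and clustering that placed 341 to 437 engineered MSC cells in the class, to log2 ratios as low as -0.14, -0.27 and -0.02 for C1qa, C1qb and C1qc. C6 stayed between 2.37 and 2.81 on the log2 scale under the same settings.

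**Figure D3:**
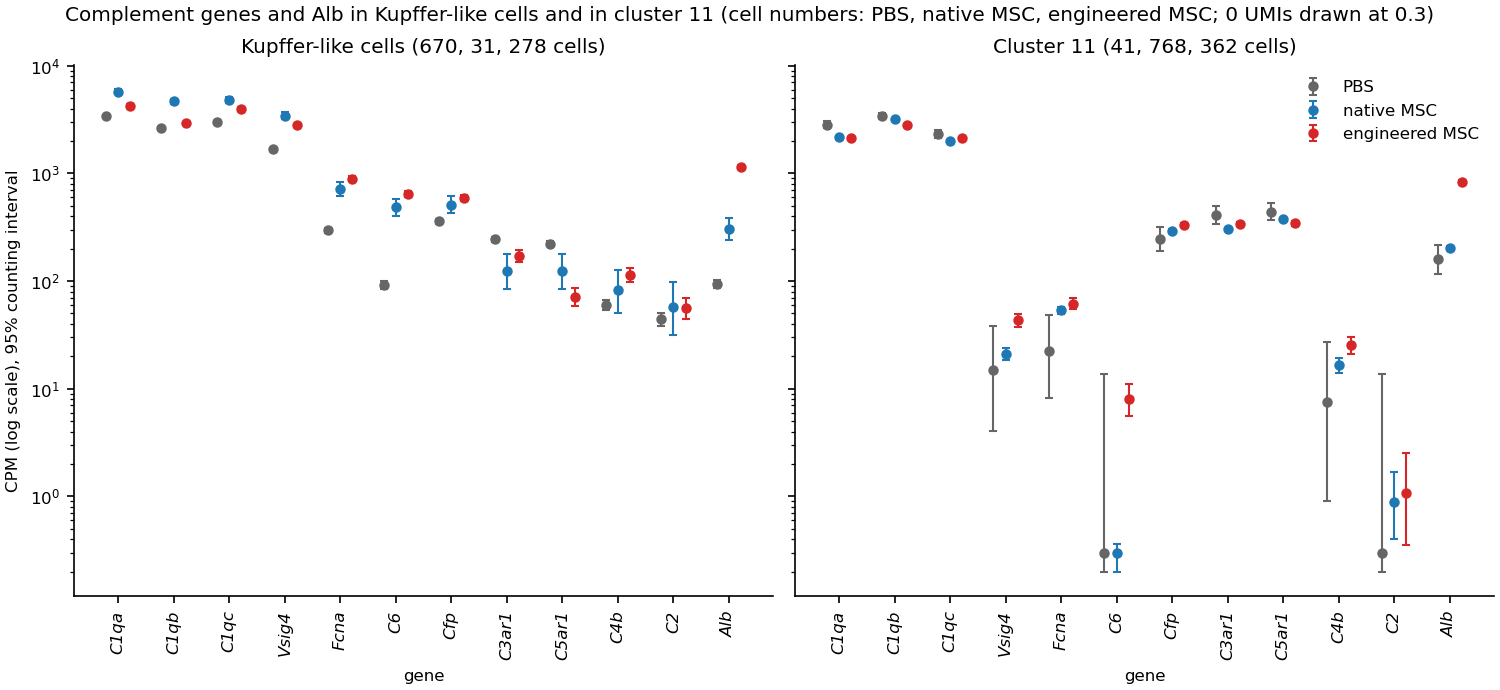
CPM (log scale, bars are exact Poisson 95% counting intervals) of 11 members and of Alb in Kupffer-like cells and in cluster 11 of each library; points at the bottom of the axis stand for 0 UMIs. C6, Fcna and Vsig4 of Kupffer-like cells are lowest in PBS and C5ar1 is highest there, while C6 is near absent from cluster 11.

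Cluster 11, which held the largest share of C1 UMIs in both MSC libraries, was compared between these by number. Of 15 members above carry-over in either library, 4 were at least 2-fold higher in engineered than in native MSC (Vsig4, C3, Cfb and Cd55, 2.14% of all such genes) and 0 were lower (1.5%). Cd55 was above carry-over in engineered MSC alone and C3 in native MSC alone. Vsig4 had 43.2 against 21.1 CPM and Cfb 15.3 against 6.85 CPM, ratios of 2.05 and 2.24. C3 had 76.2 against 34.2 CPM, with 39.9 and 6.86 CPM predicted from Alb, which was 4.12 times as high. Above carry-over were 14 of 24 members in native MSC and 14 of 31 in engineered MSC (96.2% and 90% of all genes), and in macrophage-like cells of PBS 17 of 26 (97.4%).

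In hepatocyte-like cells C9, Hc, C8b, C6 and C3 were at least 2-fold higher in engineered MSC than in PBS. C9 was 9.17 times as high in engineered MSC as in PBS (6.91 to 12.4), Hc 7.23 times and C8b 6.76 times (4.34 to 11.1). C6 there was 58.7 against 9.58 CPM, the latter from 14 UMIs in 4 cells. C3 was 3.41 times, C4bp 3.80 times and Vtn 2.36 times as high, and Alb 2.18 times. The other terminal genes C8a and C8g did not reach 2-fold, at 1.86 and 1.98 times, and within cluster 8, taken apart next, at 0.93 and 1.15 times. With each cell counted alike, the log2 ratio of C6 was 4.41 in place of 2.61 (4.08 with no mitochondrial limit), that of C3 2.37 in place of 1.77, that of C4bp 2.80 in place of 1.93 and that of Vtn 1.84 in place of 1.24. At Leiden resolution 2, C4bp was at 1.12 and C8g at 0.38 in place of 0.99. Over 32 members the median log2 ratio was 0.76 and over all genes -0.10, and 12 members were at least 2-fold higher and 7 lower, with 13.1% and 12.9% of all genes past these folds. The lower ones included the macrophage genes: C1qa was 6.39-fold lower, C3ar1 12.5-fold and C5ar1 9.61-fold, beside summed levels of Lyz2, Cd68, Ctss and Csf1r of 875 CPM in PBS and 195 CPM in engineered MSC.

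The hepatocyte-like clusters were then taken apart. Cluster 8 held 344, 820 and 146 of the hepatocyte-like cells, and cluster 6 held 1502 cells of engineered MSC and 1 of the other libraries together. Within cluster 8, C9 had 33.5, 31.7 and 49.0 CPM, a ratio of engineered MSC to PBS of 1.46 (0.98 to 2.19), and C6 a ratio of 1.30 (0.58 to 2.95). Within the engineered MSC library, C9 was 7.31 times (5.60 to 9.74), C6 5.43 times (3.20 to 10.0), C8b 3.25 times and C8a 2.21 times as high in cluster 6 (358 CPM for C9) as in cluster 8. The C9 difference between libraries thus lay with cluster 6. Hc and C3 did not follow it: within cluster 8, Hc had 8.21, 20.9 and 61.5 CPM and C3 92.4, 133 and 286 CPM, ratios of 7.49 (4.02 to 15.2) and 3.10 (2.52 to 3.81), and clusters 6 and 8 of engineered MSC differed by factors of 0.96 (0.74 to 1.26) for Hc and 1.12 (1.00 to 1.27) for C3. Alb was 1.82 times as high in cluster 8 of engineered MSC as in that of PBS.

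Native MSC also differed from PBS in hepatocyte members, and C4bp and Vtn were above PBS in both MSC libraries. C4bp was 6.06 times as high in native MSC as in PBS (4.49 to 8.39), Vtn 2.73 times and Mbl2 2.07 times, while Alb was 1.30 times as high. Within cluster 8, Hc was 2.54 times as high in native MSC as in PBS (1.41 to 5.04). At Leiden resolution 2 the log2 ratios of C4bp, Vtn and Mbl2 were 1.82, 1.00 and 0.53 in place of 2.60, 1.45 and 1.05, which puts Mbl2 under 2-fold, and C4bp was at 3.18 with each cell counted alike. C9, at 31.7 against 33.5 CPM, differed by less than its counting interval. Over 31 members the median log2 ratio was 0.23 (all genes -0.26), with 4 at least 2-fold higher and 8 lower (8.32% and 12.7% of all genes). Between the MSC libraries, C6 was 15.2 times, C9 9.71 times and C8b 4.57 times as high in engineered MSC, while within cluster 8 alone these were 3.23 times (1.55 to 6.46), 1.55 times (1.13 to 2.09) and 1.60 times (1.07 to 2.33). Of 32 members, 14 were at least 2-fold higher and 2 lower (12.1% and 6.73%). C4bp was above PBS in both MSC libraries and in cluster 8 alone, where it had 30.1, 182 and 157 CPM.

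**Figure D4:**
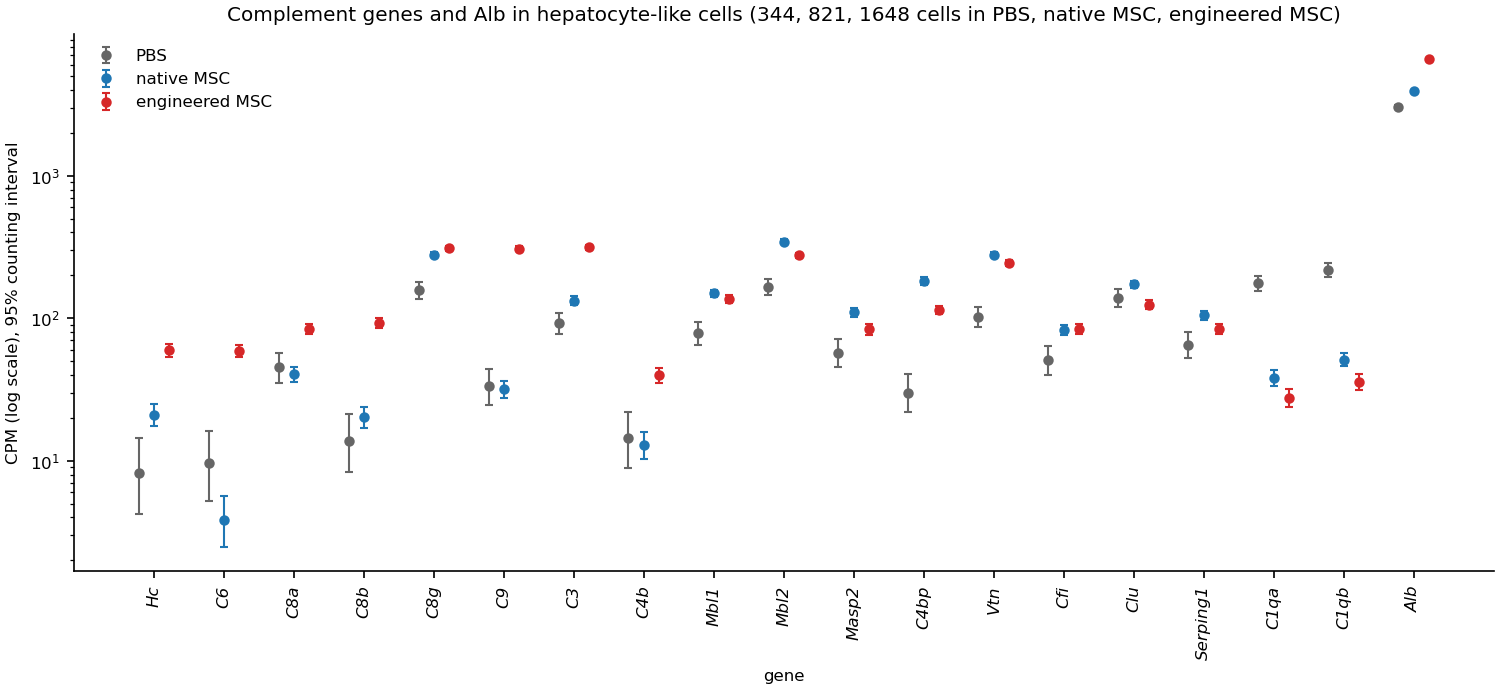
CPM (log scale, bars are exact Poisson 95% counting intervals) of 18 members and of Alb in hepatocyte-like cells of the 3 libraries. C9, C6, C8b and Hc are highest in engineered MSC, C4bp and Mbl2 in native MSC, and C1qa and C1qb in PBS.

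In the mesenchyme, stellate- or fibroblast-like cells of native MSC had more C7, 3.86 times the PBS level (3.10 to 4.84), C4b 3.06 times, C3 2.59 times and C1ra 2.40 times. Of 22 members above carry-over in either library these 4 were at least 2-fold higher (8.96% of all genes) and 5 lower (13%), among them Vsig4 with 0 UMIs in native MSC. Of the lower ones, Vsig4, Cd59a, C5ar2 and C6 were above carry-over in PBS alone, and Fcna in both libraries. Engineered MSC had another member: Masp1, at 402 against 140 CPM, was 2.88 times the PBS level (2.46 to 3.38) and 2.81 times that of native MSC. With C2 it made the 2 of 22 members higher than in PBS (8.12%), while 7 were lower (9.97%). The lower ones were the 3 C1q genes and Vsig4, and also Cfp, C3ar1 and C5ar1, which were above carry-over in PBS alone. Beside them, Lyz2, Cd68, Ctss and Csf1r summed to 997 CPM in PBS and 237 CPM in engineered MSC. C3 and C7 were 3.63-fold and 3.16-fold lower in engineered than in native MSC. In these cells 22 of 22, 17 of 18 and 18 of 22 members with enough UMIs were above carry-over (99.5%, 99% and 92.5% of all genes). With doublets kept, C4b was lower in native MSC than in PBS and C3 higher in engineered MSC, at log2 ratios of -0.39 and 1.46, so the direction of these members rests on the doublet filter. The log2 ratio of C7 was then 3.46 in place of 1.95 for native MSC over PBS and 2.12 in place of 0.29 for engineered MSC over PBS.

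**Figure D5:**
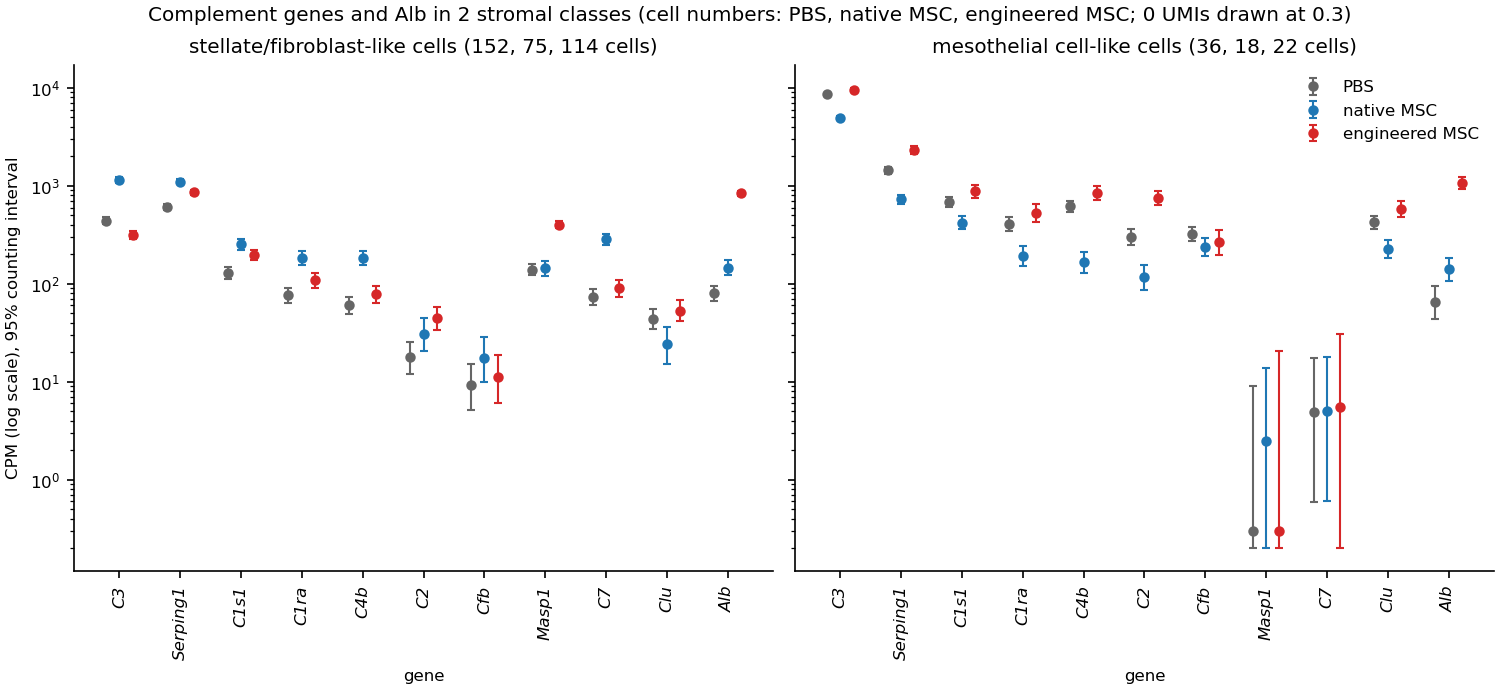
CPM (log scale, bars are exact Poisson 95% counting intervals) of 10 members and of Alb in stellate- or fibroblast-like and mesothelial-like cells of each library; points at the bottom of the axis stand for 0 UMIs. C3, C4b and C7 of stellate- or fibroblast-like cells are highest in native MSC and Masp1 in engineered MSC, while C3 is at 4918 CPM or more in the mesothelial-like cells of all 3.

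Endothelium-like cells had 17 of 19, 12 of 12 and 15 of 33 members above carry-over (98.4%, 97.2% and 81.9% of all genes). Between engineered MSC and PBS, 6 of 18 members above carry-over in either were at least 2-fold higher (7.6% of all such genes) and 5 lower (9.41%). Masp1 (2.08 times, 1.92 to 2.25) and Cd59a (2.10 times, 1.94 to 2.26) were among the higher ones and above carry-over in both libraries. C1ra was likewise above it in both, C2 in engineered MSC alone, and Hc and C3 in PBS alone. Hc in engineered MSC had 14.8 CPM observed and 11.6 CPM predicted. The 5 lower ones were the C1q genes, C3ar1 and C5ar1. Beside them, Lyz2, Cd68, Ctss and Csf1r summed to 669 CPM in PBS and 124 CPM in engineered MSC.

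Monocytes and neutrophils were compared between native MSC and PBS, which hold most of them. In classical-monocyte-like cells 1 of 15 members was at least 2-fold higher (C4b, 15.6 against 5.45 CPM, a log2 ratio of 1.52, or 2.28 with doublets kept, 2.32% of all genes) and 3 lower (Vsig4, Cd55 and Fcna, 5.69%). In neutrophil-like cells 1 of 12 was higher (C4b, 6.57 against 2.99 CPM, the latter from 4 UMIs, 9.7%) and 5 lower (7.35%): the C1q genes, C3ar1 and Vsig4, all macrophage-led. C4b was above carry-over there in native MSC alone. C5ar1, the leading member of neutrophil-like cells, had a UMI in 86.8%, 87.7% and 86.7% of them.

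Outside hepatocyte-like cells, the hepatocyte genes Vtn and Cfi, and C3, which several classes express, had ratios of engineered MSC to PBS that stand beside the difference in Alb. In T-cell-like cells Vtn had 79.4 against 2.93 CPM, 27.1 times as high, and C3 154 against 12.4 CPM, 12.4 times, while Alb was 15.7 times as high. In B-cell-like cells Vtn was 30.7 times and C3 10.1 times as high, beside 16.2 times for Alb, and in neutrophil-like cells Vtn was 28.8 times as high beside 14.5 times for Alb. Kupffer-like cells had 26.0 against 0.567 CPM of Cfi and 52.0 against 3.40 CPM of Vtn, beside 12.2 times for Alb, which the ratio of Cfi exceeds. The PBS levels of Vtn in T-cell-like cells and of both genes in Kupffer-like cells rest on fewer than 20 UMIs each. Neither Vtn nor Cfi was above carry-over in any of these classes.

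The other complement genes, 25 listed with the members, were described in the same way. Of these, 7, 8 and 8 were highest in hepatocyte-like cells of PBS, native MSC and engineered MSC. Colec11 and Colec10, further lectins that bind MASP proteases, were led by stellate- or fibroblast-like cells with 105, 102 and 613 CPM and 41.1, 37.2 and 189 CPM, highest in engineered MSC as Masp1 was. Apcs, the pentraxin that binds C1q, had 159, 781 and 97.2 CPM in hepatocyte-like cells.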

How the data were processed

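Dissociated liver cells of 3 mice were profiled with 10x Genomics 3' chemistry. Per the submitters' processing notes, the authors used Cell Ranger 7.1.0 and GRCm39, and the deposited matrices hold raw UMI counts per gene and barcode, with no normalization. The members and gene lists were chosen with earlier results of these data known. Cells were kept with at least 200 genes and 500 UMIs and at most 20% mitochondrial UMIs, and Scrublet scores removed 923, 1054 and 973 barcodes as doublets in PBS, native MSC and engineered MSC (0.8% per 1000 barcodes). Kept cells numbered 9534, 9175 and 9131, with medians of 5781, 5659 and 3668 UMIs. Clustering used 2000 variable genes without complement genes, 30 principal components, 15 neighbours and Leiden resolution 1 (scanpy 1.11.5, leidenalg 0.10.2, Python 3.11.15). A cluster was named from 24 marker lists where its best score reached 0.5, led that of any other lineage by 0.5 and rested on at least 3 markers, and its 10 leading genes held no more markers of another lineage than of its own. Clusters 8, 10 and 16 held none of their own among these. Cluster 9 passed the rule but is given by number for its leading muscle genes. The rule that left cluster 27 without a name was added after seeing the data.

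Counts were summed per class and library and given as CPM with exact Poisson intervals, ratios with exact conditional binomial intervals (scipy 1.17.1). Each member was to be named in its highest class and in up to 3 others where it was above carry-over at 50 CPM or more. Differences between libraries were to be named at a ratio of 2 or more with a bound over 1.5 times from equality and 20 UMIs in the pair, up to 6 per class and pair; the text gives a part of these. With 1 library per group no model was fitted. The calculations were checked on simulated data. PCR and droplet effects are not covered by the intervals. One of the other complement genes is not reported here.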

Additional observations from a re-analysis of the deposited data

Results flagged for a closer look

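Between native MSC and PBS, C1qb and C3 had ratios on opposite sides of equality in different classes, and none of these differences was tested. C1qb in native MSC was 2.23 times the PBS level in cluster 9, but 0.303 times in B-cell-like, 0.262 times in T-cell-like and 0.288 times in neutrophil-like cells. The myeloid transcripts Lyz2, Cd68, Ctss and Csf1r summed to 1194 and 980 CPM in B-cell-like cells of PBS and native MSC. The sums were 685 and 423 CPM in T-cell-like cells and 2159 and 2503 CPM in neutrophil-like cells. The part of these transcripts in the result was not tested. C3 was 3.82 times the PBS level in B-cell-like and 2.59 times in stellate- or fibroblast-like cells, but 0.390 times in cluster 9, where its log2 ratio of -1.36 was -0.76 at a mitochondrial limit of 10%. Alb was 202 and 790 CPM in B-cell-like cells, 80.3 and 146 CPM in stellate- or fibroblast-like cells and 116 and 355 CPM in cluster 9 of PBS and native MSC.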

How the results depend on the processing

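No paired analysis was possible because each group is 1 library. Leaving out a library was not possible for the same reason. The members above carry-over in any class numbered 23 to 29 in PBS, 24 to 29 in native MSC and 23 to 31 in engineered MSC over the alternatives, and 24 in engineered MSC with cluster 17 as the source; that source, cluster 8 alone and some others were chosen after seeing the data. Median log2 ratios of the members over all UMIs moved as follows. In hepatocyte-like cells, engineered MSC over PBS was 0.76, 0.42 at Leiden resolution 2 and 1.39 with each cell counted alike, and engineered over native MSC was 0.13 and 0.53 with each cell counted alike. In macrophage-like cells (26 and 18 cells), engineered over native MSC was -0.04, 0.11 with no mitochondrial limit, 1.19 with doublets kept, 1.10 with complement genes among the variable genes, 0.51 with at least 1 UMI and 1.08 with cluster 11 counted in. In Kupffer-like cells, engineered MSC over PBS was 0.93, 2.12 with at least 500 genes, 1.80 at a mitochondrial limit of 10%, 2.07 with none, 2.10 at Leiden resolution 2, 2.08 with complement genes among the variable genes and 0.49 over members above carry-over. In the same order of the first 5 of these settings, C1qa in Kupffer-like cells turned to -0.13, -0.14, -0.14, -0.12 and -0.10, and C1qb to -0.27, -0.27, -0.27, -0.25 and -0.24, while C1qc turned to -0.0069, -0.024 and -0.018 at the first 3. With doublets kept, native MSC over PBS turned to -0.39 for C4b in stellate- or fibroblast-like cells and 1.06 for C1qb in classical-monocyte-like cells, and engineered MSC over PBS to 1.46 for C3 in stellate- or fibroblast-like cells. Serping1 there turned to -0.094 with each cell counted alike, and Cfb in cluster 9 (native MSC over PBS) to -0.22 with at least 500 genes. The cause was not tested. Of 497 values of single members under the alternatives, 370 stayed within their counting interval, 109 moved and 18 turned.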

Other observations

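Among complement genes outside the members, Cd93, a receptor of endothelium, had 1218, 678 and 423 CPM in endothelium-like cells of PBS, native MSC and engineered MSC. This order was unlike that of Cd55 and Cd59a. Itgam and Itgb2, which together form complement receptor CR3, were led by neutrophil-like or classical-monocyte-like cells, at 302, 299 and 305 CPM and 311, 314 and 336 CPM.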
